A study of Bos taurus with 2 samples.

Results

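PTX3, CCL2, CXCL8, IL6, CSF3 and CX3CL1 are secreted or shed mediators of inflammation, described here across the cells of the bovine mammary gland. They are 6 of the 27270 genes in the count tables, and all 6 had counts in both libraries. The members were picked with levels from the same tables in view, as inflammatory mediators of stroma and vessels. Differences between the libraries are therefore given as a description, with no test. The label describes part of the set, and the levels below are no separate support for it. Among gates of at least 20 barcodes, PTX3 and CCL2 were highest in the fibroblast gates and IL6 and CSF3 in a vessel gate of both libraries. The highest gates of adult PTX3 and CCL2 and of newborn IL6 and CSF3 changed under some settings. CXCL8 was highest in the neutrophil gates, and most adult CX3CL1 lay in epithelium. The files give PTX3 as ENSBTAG00000009012, CCL2 as ENSBTAG00000037811, CXCL8 as ENSBTAG00000019716, IL6 as ENSBTAG00000014921, CSF3 as ENSBTAG00000021462 and CX3CL1 as ENSBTAG00000024869.

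PTX3 is a secreted pattern recognition protein of the long pentraxin family, which binds microbes and complement. CCL2 attracts monocytes through CCR2, CXCL8 attracts neutrophils through CXCR1 and CXCR2, and CX3CL1 is a chemokine held in the membrane that binds CX3CR1 and is shed by the proteases ADAM10 and ADAM17. IL6 acts through IL6R and the shared subunit IL6ST, known as gp130, and CSF3 drives granulocyte formation through CSF3R. Transcription of these genes in stromal and endothelial cells is known to follow interleukin 1, TNF and Toll-like receptor signals through NF-kB and AP-1, and their short-lived transcripts are controlled by proteins such as ZFP36. In the mammary gland the same mediators are known for recruiting leukocytes during mastitis, and they can also be induced in tissue that is cut and digested.

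Mammary gland tissue of Holstein cattle was profiled as single cells at 2 stages, with 1 library from an adult titled as lactating and 1 library from a newborn. The labels do not say how many animals each library holds. Per the labels' protocols, both tissues were dissociated with EDTA and then with a mix of DNase, collagenases and hyaluronidase, and 10x V3 libraries were made from the 3' ends of transcripts. Effects of stage, of the animal and of the preparation of each library cannot be told apart, and no difference has a replicate check.

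Depth was 85388618 UMIs (unique molecular identifiers, each counting 1 captured transcript) over 15897 adult barcodes, and 65597671 UMIs over 13772 newborn barcodes. The median barcode had 2723 UMIs in the adult and 4581 in the newborn. Filtering left 14691 adult and 13710 newborn barcodes, and 53 barcode sequences were kept in both libraries. Barcodes were assigned to lineages, called gates here, by their raw counts of marker genes. All 6 fibroblast markers had UMIs in the fibroblast gate of both libraries, at 22917 CPM in 245 adult barcodes and 26898 CPM in 11903 newborn barcodes. CPM is the sum of a gene's UMIs over a gate per 1000000 UMIs of that gate. Intervals are exact 95% intervals (Poisson for CPM, Clopper-Pearson for shares, conditional binomial for ratios), and they and the floors cover counting error only.

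Background from free RNA was read from T and NK cells, which are not known as a main source of PTX3 or CCL2. In the adult, the T and NK gate (6576 barcodes, median 2837 UMIs) had 5.51 CPM of PTX3, 12.6 CPM of CCL2, 20.1 CPM of IL6 and 351 CPM of CXCL8. In the newborn, the T and NK gate (87 barcodes, median 4779 UMIs) had 779 CPM of PTX3, 281 CPM of CCL2, 31.4 CPM of IL6 and 4.49 CPM of CXCL8. The newborn value was thus the higher one for PTX3 and CCL2, and the adult value for CXCL8. The adult CXCL8 value is no even floor, since 41 of the 6576 barcodes held at least 50% of its UMIs and the median barcode had 0. A PTX3 UMI was found in 96.6% of newborn T and NK barcodes and in 88.7% of 302 newborn mast cell barcodes (median 1348.5 UMIs), and in 1.64% of adult T and NK barcodes. Shares of barcodes with 1 UMI therefore do not separate expressing newborn cells, and counts per barcode are used beside them.

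Among adult gates of at least 20 barcodes, PTX3 and CCL2 had their highest level in the fibroblast gate, CXCL8 in the neutrophil gate, and IL6, CSF3 and CX3CL1 in the blood endothelial gate. Among newborn gates of at least 20 barcodes, PTX3, CCL2 and CX3CL1 were highest in fibroblasts, CXCL8 in neutrophils, and IL6 and CSF3 in lymphatic endothelium. The place of newborn IL6 is not firm: the lymphatic gate had 922 CPM, with at least 50% of it in 2 of 71 barcodes, and the fibroblast gate 821 CPM, and the highest gate was fibroblasts with a margin of 4 between lineages or with barcodes under 5000 UMIs and blood endothelium at lower gate thresholds, where CSF3 was highest too. Below that minimum, 12 adult barcodes gated by ACTA2 and MYH11 were higher for PTX3. A newborn blood endothelial gate of 18 barcodes stood higher still for IL6 and CSF3, and a newborn macrophage gate of 17 barcodes did so for CCL2. Luminal, basal and secretory epithelial gates held 736, 85 and 339 adult barcodes and 0 newborn barcodes. Levels are compared within a gene and not between genes.

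**Figure D1:**
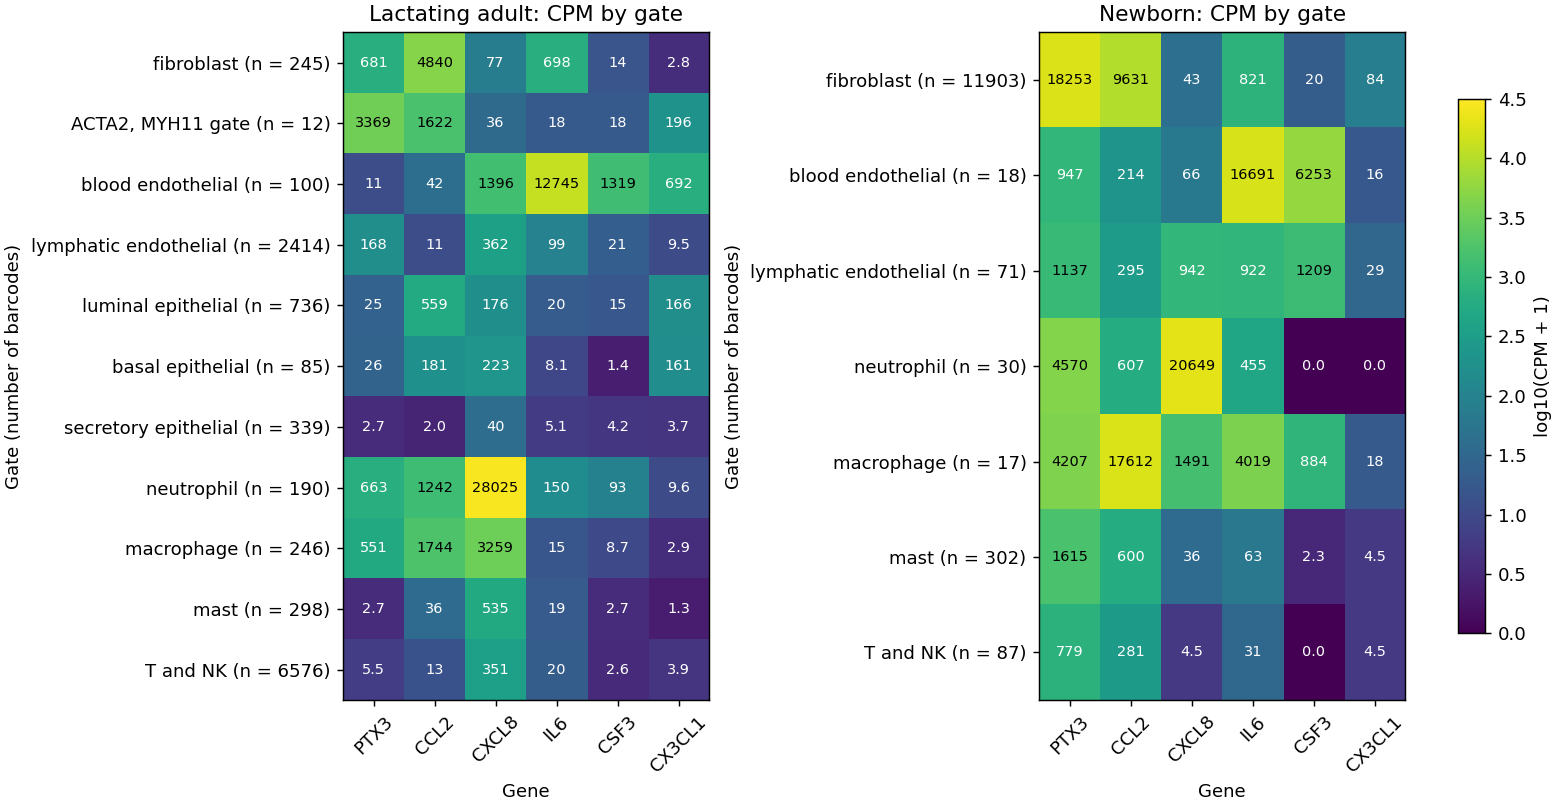
Level of each of the 6 genes (columns) in each gate (rows, with its number of barcodes) as CPM, with colour on a log10(CPM + 1) scale, lactating adult left and newborn right. Among gates of at least 20 barcodes, PTX3 and CCL2 peak in the fibroblast gates (681 and 4840 CPM in the adult, 18253 and 9631 CPM in the newborn), CXCL8 peaks in the neutrophil gates and adult IL6 peaks in the blood endothelial gate at 12745 CPM.

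In the fibroblast gate, 2 of the 6 members, PTX3 and CX3CL1, were at least 4-fold lower in the lactating adult than in the newborn, and 0 were at least 4-fold higher. Of the 12909 genes with at least 20 UMIs over both gates, 1.65% were lower and 9.57% higher by the same rule (4-fold, with an interval that leaves out 1). The median gene was 0.76 higher in the adult on the log2 scale, and relative values below are set against it. The contrast was in view when the members were picked, and nothing is read from these counts. With barcodes under 5000 UMIs only, 4 members were lower and 1 was higher, and without the 10% of barcodes with most UMIs 3 were lower, CCL2 being the addition. The higher one was CXCL8, at 116 CPM in the adult and 27.2 CPM in the newborn. Its 42 adult UMIs lay in 40 barcodes and are not read as expression.

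**Figure D2:**
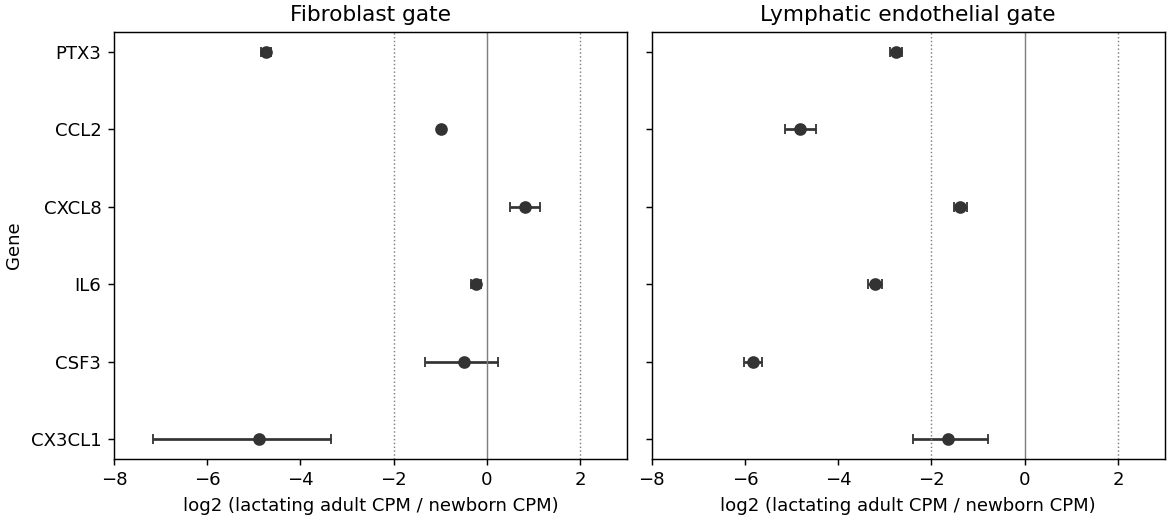
Log2 ratio of lactating adult over newborn CPM for each gene, in the fibroblast gate (left) and the lymphatic endothelial gate (right), with exact conditional binomial 95% intervals; the solid line is no difference and the dotted lines mark 4-fold. PTX3 and CX3CL1 lie left of the lower dotted line in fibroblasts, and PTX3, CCL2, IL6 and CSF3 do so in lymphatic endothelium. The lymphatic CCL2 level is close to background in both libraries.

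PTX3 had 718 UMIs in the adult fibroblast gate, or 681 CPM (633 to 733), and 1130013 UMIs in the newborn fibroblast gate, or 18253 CPM. It was 26.8-fold lower in the adult (24.9 to 28.9), a log2 ratio of -4.74, or -5.50 relative to the median gene. Leaving out the barcodes shared by both libraries gave -4.80. Newborn fibroblasts held 98.6% of the library's PTX3 UMIs, in a gate with 94.4% of all newborn UMIs. A PTX3 UMI was found in 15.5% of adult and 98.7% of newborn fibroblasts.

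Fibroblasts were not alone in carrying PTX3 in the adult. The adult neutrophil gate had 663 CPM (575 to 759), which overlaps the fibroblast interval, and 3 of its 190 barcodes held at least 50% of these UMIs. Those 3 barcodes had a median depth of 11326 UMIs, against 985 over the gate, and whether they are doublets was not tested. Neutrophils, not fibroblasts, were the highest adult gate for PTX3 under 4 of the alternative settings, among them the mean of CPM per barcode. Both macrophages and lymphatic endothelium were lower: the macrophage gate had 551 CPM (516 to 587) and the lymphatic gate 168 CPM (161 to 175). By share of UMIs the order differed: lymphatic barcodes held 42.8% of the 5676 adult PTX3 UMIs, macrophages 16.8% and fibroblasts 12.6%. The 12 adult barcodes gated by ACTA2 and MYH11 had 3369 CPM of PTX3 (2906 to 3885, 189 UMIs). Only 2 of the 6 markers of that gate had UMIs and KRT5, a basal epithelial keratin, had 149, so these cells are given no name.

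CCL2 had 5100 UMIs in the adult fibroblast gate, or 4840 CPM (4708 to 4975), and 596240 UMIs in the newborn fibroblast gate, or 9631 CPM (9607 to 9656). The adult level was 0.503 times that of the newborn (0.489 to 0.517). Relative to the median gene its log2 ratio was -1.75. Adult CCL2 came from several cell types: luminal epithelium held 39.4% of its 18002 adult UMIs, fibroblasts 28.3% and macrophages 16.8%. Adult macrophages had 1744 CPM (1682 to 1808), with a CCL2 UMI in 45.9% of 246 barcodes at a median of 6634 UMIs. The newborn macrophage gate had 17612 CPM, but it held 17 barcodes and 3636 CPM of fibroblast markers, against 45.1 CPM of these markers in the adult macrophage gate. The part of fibroblast RNA in that CCL2 level was not tested.

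The summed IL6 level of fibroblasts was close at both stages, with 735 UMIs or 698 CPM (648 to 750) in the adult and 50824 UMIs or 821 CPM (814 to 828) in the newborn. The ratio was 0.850 (0.789 to 0.914), within 4-fold, and -0.99 on the log2 scale relative to the median gene. This closeness rests on few cells: 2 of 245 adult fibroblasts held at least 50% of the IL6 UMIs, CPM per barcode averaged 355 over adult and 718 over newborn fibroblasts, and barcodes under 5000 UMIs had 41.3 CPM in the adult and 612 CPM in the newborn. CSF3 had 15 UMIs or 14.2 CPM (7.97 to 23.5) in adult fibroblasts and 1238 UMIs or 20.0 CPM (18.9 to 21.1) in newborn fibroblasts, and the interval of its ratio, 0.397 to 1.18, includes 1. CXCL8 had 76.9 CPM in adult fibroblasts, with at most 3 UMIs in a barcode, and a UMI in 27.8% of them against 25.5% of adult T and NK barcodes, so it is not read as expression. In newborn fibroblasts it had 43.5 CPM (41.8 to 45.1), above the 4.49 CPM of newborn T and NK cells, and 191 of 11903 barcodes exceeded the T and NK limit of 1 UMI.

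CX3CL1 had 3 UMIs in adult fibroblasts, or 2.85 CPM, and 5228 UMIs or 84.4 CPM (82.2 to 86.8) in newborn fibroblasts. The adult value does not exceed the 3.88 CPM of adult T and NK cells and the newborn value stood above the 4.49 CPM of newborn T and NK cells. The ratio of adult over newborn was 0.0337 (0.00695 to 0.0986). At least 2 CX3CL1 UMIs, past the T and NK limit of 1 in both libraries, were present in 0 of 245 adult fibroblasts, which allows a share of up to 1.22% by the floor of 3 barcodes (upper Clopper-Pearson limit 1.49%). In the newborn gate 784 fibroblasts (6.59%) had them.

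The members were very unevenly spread over fibroblasts. In the adult, 25 of the 245 barcodes held 97.9% of PTX3 UMIs, and a group of the same size held 97.1% of CCL2 and 98.2% of IL6 UMIs. The highest single barcodes had 135 PTX3, 743 CCL2 and 221 IL6 UMIs, while the median barcode had 0 of each. In the newborn, the lower quartile, median and upper quartile were 4, 13 and 134 UMIs for PTX3, 1, 3 and 34 for CCL2, and 0, 0 and 2 for IL6. The highest newborn barcodes had 1440 PTX3, 1347 CCL2 and 575 IL6 UMIs, and the 10% of barcodes with most UMIs of a gene held 48.3% of PTX3, 69.3% of CCL2 and 79.5% of IL6. PTX3 was the most evenly spread of these 3 genes in the newborn gate, where 3494 barcodes (29.4%) had at least 100 PTX3 UMIs.

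Against the 99th percentile of T and NK barcodes of the same library, 27 of 245 adult fibroblasts (95% interval 7.39% to 15.6%) exceeded the limit for PTX3, which was 1 UMI. Of newborn fibroblasts, 6258 of 11903 (52.6%, 51.7 to 53.5) exceeded a limit of 10 UMIs. The limit for CCL2 was passed by 49 adult barcodes (20.0%, limit 1) and 4625 newborn barcodes (38.9%, limit 5), and that for IL6 by 20 adult (8.16%, limit 1) and 3342 newborn barcodes (28.1%, limit 1). A larger share of newborn than of adult fibroblasts passed the limit for all 3 genes, including IL6, whose summed level was close at both stages. No newborn mast cell passed the PTX3 or the CCL2 limit. Fibroblasts had a median of 3013 UMIs in the adult and 4904 in the newborn, and with every barcode thinned to 1000 UMIs an IL6 UMI was found in 7.66% of 222 adult and 22.8% of 11439 newborn fibroblasts (23 and 464 shallower barcodes left out). Without thinning these shares were 15.5% and 44.6%.

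**Figure D3:**
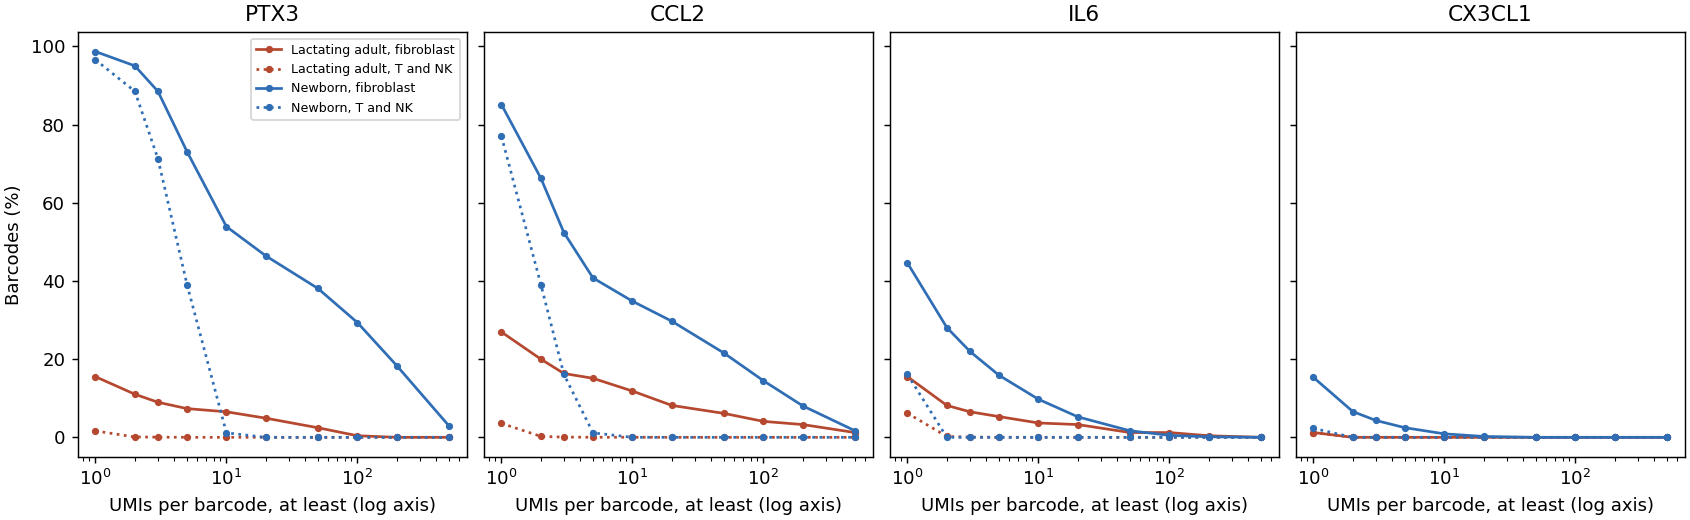
Share of barcodes (percent, y axis) with at least the given number of UMIs per barcode (x axis, log scale) of PTX3, CCL2, IL6 and CX3CL1, in the fibroblast gate (solid) and the T and NK gate (dotted), lactating adult in red and newborn in blue. For PTX3 the newborn fibroblast curve lies above the newborn T and NK curve, at 73.1% against 39.1% of barcodes with at least 5 UMIs. At 10 UMIs 53.9% of newborn fibroblasts and 1.15% of newborn T and NK barcodes remain, and the adult fibroblast curve stands at 6.53%.

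Deep adult barcodes carried most of these transcripts. In the 80 adult fibroblasts with 5000 UMIs or more, PTX3 had 1019 CPM, CCL2 7274 and IL6 1042, against 38.6, 207 and 41.3 CPM in the 165 shallower ones. The newborn gate had the same order with a smaller gap, at 21537 CPM of PTX3 in 5736 deep barcodes and 11323 in 6167 shallow ones. With shallow barcodes alone, the log2 ratio of adult over newborn was -8.20 for PTX3, -4.68 for CCL2 and -3.89 for IL6. These ratios lie below those over all barcodes for the 3 genes, and CCL2 and IL6 passed 4-fold with shallow barcodes only.

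Those adult barcodes were looked at after their values were seen, by setting apart fibroblasts with at least 10 CCL2 UMIs. The 29 adult barcodes of this kind had 2192 CPM of PTX3 and 2502 of IL6, and the other 216 had 132 and 41.4. They also had 2345 CPM of PTGS2, the inducible prostaglandin synthase, against 136, and 1662 CPM of TNFAIP6, against 281. All 6 fibroblast markers had UMIs in them, at 15707 CPM against 25539 CPM in the rest. Markers of endothelium (74.7 against 163 CPM), T and NK cells (189 against 207) and epithelium (253 against 311) were no higher in them, macrophage markers were (352 against 94.5), and their part was not tested. Their median depth was 9183 UMIs against 2548, and the median mitochondrial share was 2.80% against 5.20%.

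In the newborn, 4145 fibroblasts had at least 10 CCL2 UMIs. PTX3 had 29813 CPM in them and 8775 CPM in the other 7758, and IL6 had 1226 and 489 CPM. TNFAIP6, PTGS2 and the bovine acute-phase gene SAA3 were higher in the same barcodes, at 9883 against 3698, 1816 against 670 and 5941 against 3022 CPM. PTX3, IL6, TNFAIP6, PTGS2 and SAA3 were thus higher in high-CCL2 fibroblasts of both libraries, with adult SAA3 at 185 against 82.8 CPM. The newborn high-CCL2 barcodes were also deeper, at a median of 6066 against 4296 UMIs. They had more macrophage markers (83.3 against 57.9 CPM) and fewer fibroblast markers (20907 against 31810 CPM). The part of depth and of these markers was not tested. Immediate early genes did not share one direction, since their summed level in high-CCL2 barcodes was 28370 against 15449 CPM in the adult and 23193 against 35470 CPM in the newborn.

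Detection of pairs of members was compared after thinning to 1000 UMIs. A PTX3 UMI was present in 33.3% (20.4 to 48.4) of 48 adult fibroblasts with a CCL2 UMI and in 4.02% (1.63 to 8.11) of 174 without one. In newborn fibroblasts the shares were 90.6% with and 74.4% without CCL2. CCL2 was found in 70.6% of newborn fibroblasts with IL6 and in 54.6% of those without. CX3CL1 went with CCL2 too, which had a UMI in 71.8% (68.1 to 75.4) of newborn fibroblasts with CX3CL1 and in 57.5% (56.5 to 58.4) without it. For CXCL8 the intervals overlapped in adult fibroblasts, with PTX3 in 11.5% (2.45 to 30.2) of barcodes with CXCL8 and in 10.2% (6.35 to 15.3) without.

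The genes most like each member were ranked by Pearson correlation of log2(count per 10000 + 1) over barcodes thinned to 1000 UMIs, in the gate of at least 200 barcodes where the member was highest, as a description of cells that share a library. CSF3 is left out, since it was detected in 0.663% of the barcodes of that gate. In 11439 newborn fibroblasts, PTX3 was most like TNFAIP6 (r = 0.53), GFPT2 (0.50), CCL2 (0.50), TFPI2 (0.38) and PTGS2 (0.37) among 2075 genes. TNFAIP6 encodes a hyaluronan-binding protein known in mouse and human to bind PTX3, GFPT2 a hexosamine pathway enzyme and TFPI2 a protease inhibitor. CCL2 was most like PTX3 (0.50), TNFAIP6 (0.39), GFPT2 (0.37), PTGS2 (0.34) and GRO1 (0.30), a CXC chemokine for neutrophils. IL6 was most like PTX3 (0.24), PTGS2 (0.23), CCL2 (0.22), TNFAIP6 (0.21) and TFPI2 (0.20). CX3CL1, detected in 5.37% of these thinned barcodes, ranked lower, at 183 for PTX3, 169 for CCL2 and 481 for IL6.

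Newborn fibroblasts were divided by genes that were not members, and PTX3 was above the free RNA level in each subset. Barcodes with PI16 or CLEC3B, markers of adventitial fibroblasts, numbered 9296 and had 18445 CPM of PTX3, and those with POSTN or TNC, matrix genes, numbered 917 and had 20784 CPM (20675 to 20894). Barcodes with SAA3 (2615) had 20816 CPM (20743 to 20888), not distinct from the POSTN or TNC subset. PTX3 was lower, at 12795 CPM, in 284 barcodes with contractile genes (CNN1, DES, OXTR or MYLK) and at 4556 CPM in 9 barcodes with genes of cell division. CCL2 peaked elsewhere, at 13702 CPM in 363 barcodes with the adipocyte genes PPARG, FABP4 or PLIN1, where SAA3 was 13687 CPM against 4337 over the whole gate. CX3CL1 ran from 42.2 CPM in the contractile subset to 104 CPM in the SAA3 subset, leaving aside the 9 dividing barcodes with 2 UMIs, and the subsets overlap.

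**Figure D4:**
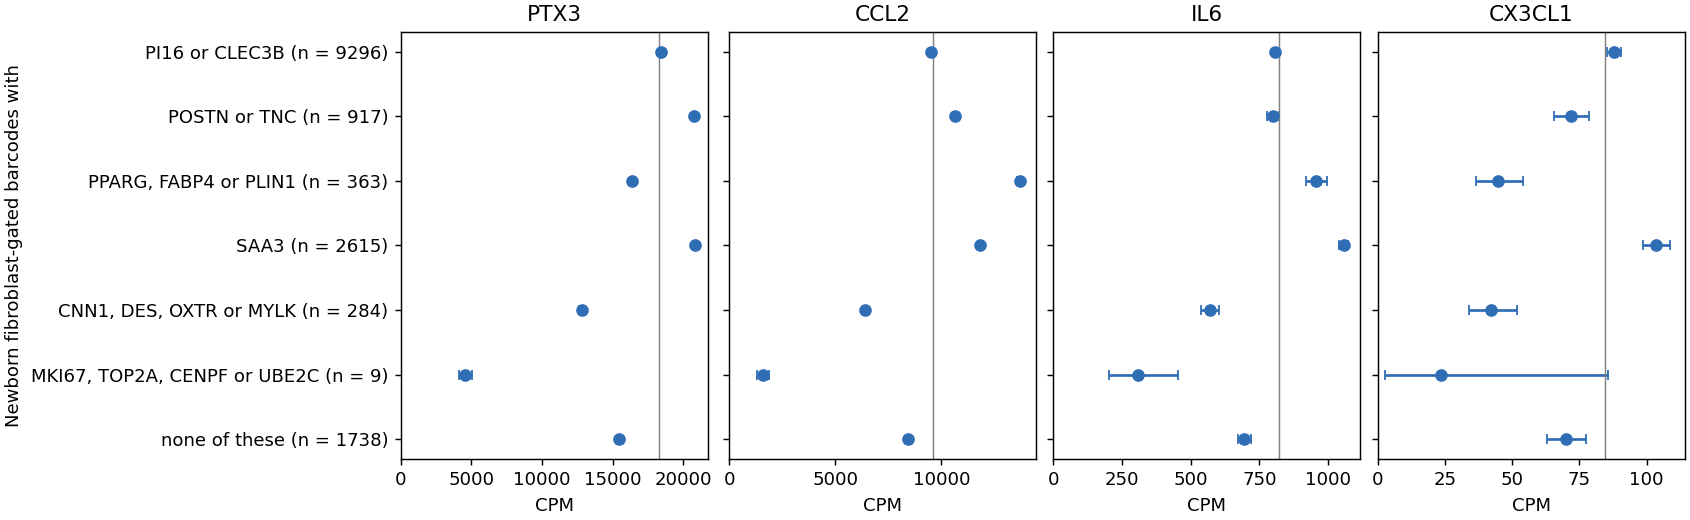
CPM of PTX3, CCL2, IL6 and CX3CL1 (x axes) in newborn fibroblast-gated barcodes with UMIs of the named genes (rows, with the number of barcodes), with exact Poisson 95% intervals; the vertical line is the whole gate. CCL2 is highest with PPARG, FABP4 or PLIN1 (13702 CPM), IL6 and CX3CL1 with SAA3 (1058 and 104 CPM), and all 4 genes are lower in the contractile subset.

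In the adult, 217 of 245 fibroblasts had PI16 or CLEC3B, and they held 710 CPM of PTX3, 5072 of CCL2 and 729 of IL6, close to the whole gate. The 12 contractile adult barcodes had 175 CPM of PTX3 (97.8 to 288) and 1445 CPM of CCL2. Both genes were thus below the level of the whole gate in the contractile subset at both stages, though 26 adult barcodes with none of the subset genes were lower still, at 92.4 and 69.3 CPM. IL6 had 0 UMIs in those 12 barcodes, with an upper 95% limit of 43.0 CPM, against 698 CPM over the whole gate.

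Blood vessels held more of the adult IL6 and CSF3 UMIs than any other gate. The adult blood endothelial gate (100 barcodes, median 5823 UMIs) had 10918 UMIs or 12745 CPM of IL6, with a UMI in 62.0% of barcodes, and 1130 UMIs or 1319 CPM of CSF3, with a UMI in 43.0%. It was 0.681% of adult barcodes and held 58.5% of IL6 and 49.8% of CSF3 UMIs, while barcodes with markers of several lineages held another 14.4% and 15.2%. Adult T and NK cells had an IL6 UMI in 6.17% and a CSF3 UMI in 0.791% of barcodes. The newborn blood endothelial gate of 18 barcodes had 16691 CPM of IL6 (15972 to 17434), with a UMI in 61.1%, and 6253 CPM of CSF3 (5816 to 6714) from 5 barcodes. At that size no ratio is given.

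Within the adult blood endothelial gate, the median barcode had 5 IL6 UMIs and the highest 2340, and 5 barcodes held at least 50% of them. CSF3 and IL6 were found together: thinned to 1000 UMIs, IL6 was present in 84.6% (65.1 to 95.6) of 26 barcodes with CSF3 and in 43.2% (31.8 to 55.3) of 74 without. CSF3 and CX3CL1 were not separable in the same way, with CSF3 in 41.7% (22.1 to 63.4) of barcodes with CX3CL1 and 21.1% (12.5 to 31.9) without. PTX3 and CCL2 were low in these cells, at 10.5 and 42.0 CPM. The 7 markers that set blood vessel barcodes apart were PLVAP, FLT1, SOX17, SELE, SELP, NOTCH4 and EMCN. All 7 had UMIs in the gate in both libraries, at 5426 CPM in the adult and 5775 CPM in the newborn. Since the gate was set by these genes, their level is no separate check of it.

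**Figure D5:**
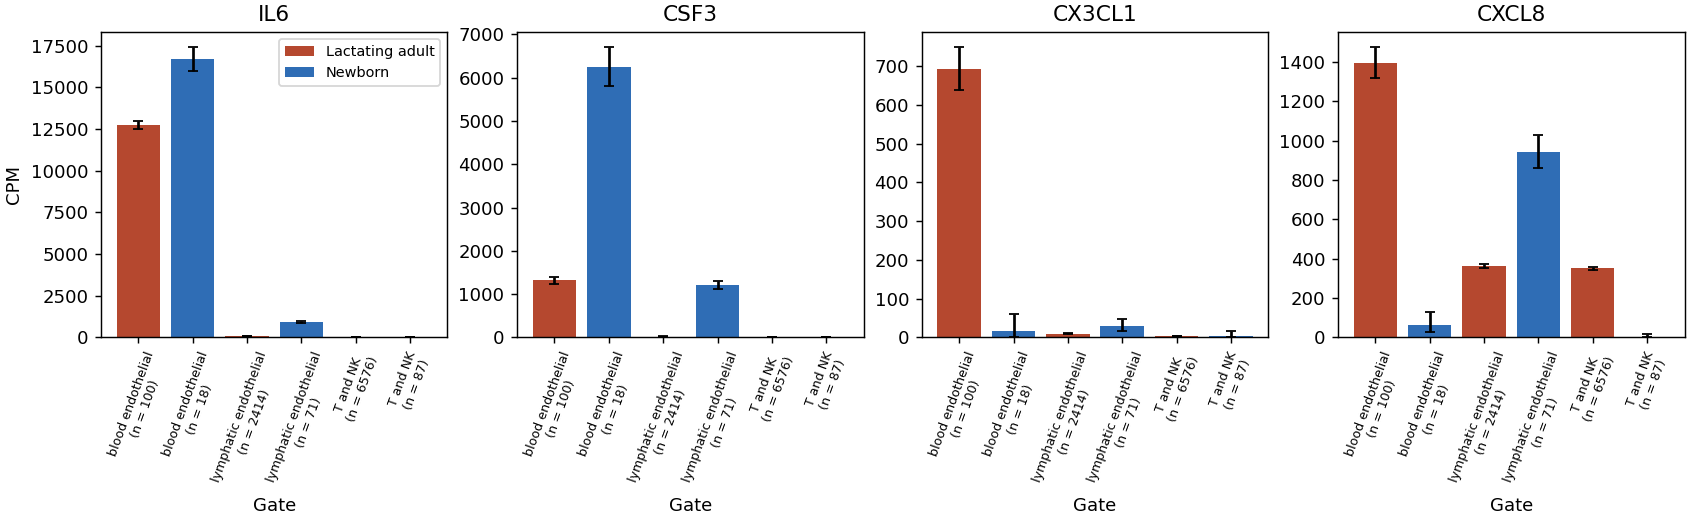
CPM of IL6, CSF3, CX3CL1 and CXCL8 in blood endothelial, lymphatic endothelial and T and NK gates (x axis, with the number of barcodes), lactating adult in red left of newborn in blue, with exact Poisson 95% intervals. IL6 stands at 12745 CPM in adult and 16691 CPM in newborn blood endothelium, and CX3CL1 at 692 CPM in adult against 16.5 CPM in newborn blood endothelium.

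Lymphatic endothelium could be compared between stages, with 2414 adult and 71 newborn barcodes (median 3461 and 5157 UMIs) and all 6 lymphatic markers detected in both, at 7934 and 6094 CPM. Of the 6 members, 4 were at least 4-fold lower in the adult and 0 were higher, where 1.77% of 11119 genes were lower and 2.3% higher. CCL2 is among the 4, though its level was close to background in both libraries. IL6 had 99.0 CPM (93.9 to 104) in the adult and 922 CPM (843 to 1006) in the newborn, a log2 ratio of -3.22. CSF3 had 21.3 CPM (19.0 to 23.8) in the adult and 1209 CPM (1118 to 1305) in the newborn, a log2 ratio of -5.83. Few newborn barcodes carried them: 2 of 71 held at least 50% of the IL6 UMIs and 3 of 71 held at least 50% of the CSF3 UMIs.

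Fibroblast markers summed to 36.4 CPM in adult and 776 CPM in newborn lymphatic barcodes (6 of 6 detected in both). PTX3 had 168 CPM in adult and 1137 CPM in newborn lymphatic barcodes, and CCL2 had 10.5 and 295 CPM. The newborn values lay between those of newborn T and NK cells (779 and 281 CPM) and mast cells (1615 and 600 CPM), where the mast cell barcodes are shallower. For CCL2, 2 of 71 newborn barcodes (2.82%, 0.343 to 9.81) exceeded the T and NK limit. In the adult, 5 of 2414 (0.207%) did, and the level did not exceed that of adult T and NK cells. Both sides of the CCL2 ratio are thus close to background, and no difference within lymphatic cells is read from it. For PTX3, 10 of 71 (14.1%, 6.97 to 24.4) exceeded the limit of 10 UMIs. That limit is the highest count among the 87 newborn T and NK barcodes, so none of those can exceed it. The median newborn lymphatic barcode had 5 PTX3 UMIs, against 4 in newborn T and NK cells, and the highest had 161 of the 617 UMIs. The part of free RNA in the PTX3 ratio of lymphatic barcodes was not tested. In the adult, 246 of 2414 lymphatic barcodes (10.2%) exceeded the PTX3 limit. The limit was set on T and NK barcodes so that few of them can pass, and 6 of 6576 did. The ratio of PTX3 to CCL2 UMIs was 16.0 in adult lymphatic barcodes and 0.141 in adult fibroblasts, against 3.86 in newborn lymphatic barcodes and 1.90 in newborn fibroblasts. Adult T and NK cells had 0.439, newborn T and NK cells 2.78 and newborn mast cells 2.69. The value of 16.0 divides by a CCL2 level close to background.

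With blood, lymphatic and unsplit vessel barcodes taken as 1 endothelial gate (2599 adult, 89 newborn), 4 of 6 members were lower in the adult and 0 higher, where 1.86% of 11355 genes were lower and 2.2% higher. The log2 ratios were -2.79 for PTX3, -4.51 for CCL2, -2.14 for IL6 and -4.56 for CSF3. On the newborn side PTX3 had 1103 CPM, between the levels of newborn T and NK cells and mast cells. CCL2 had 280 CPM there and 12.3 CPM on the adult side. Neither exceeds the level of T and NK cells of the same library, so both sides of its ratio are close to background. The part of free RNA in the PTX3 ratio was not tested. Blood vessel barcodes made up 100 of the 2599 adult and 18 of the 89 newborn barcodes, and this difference in make-up cannot be told apart from a difference within cells. CX3CL1 was 51.0 CPM in the adult and 27.1 CPM in the newborn, a log2 ratio of 0.91, but this changed sign to -1.72 with barcodes under 5000 UMIs only. In lymphatic barcodes alone CX3CL1 had 9.47 CPM in the adult and 29.5 CPM in the newborn, a log2 ratio of -1.64.

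CX3CL1 was found in both adult vessels and epithelium, and it was not alone in this. It had 692 CPM (638 to 750) in adult blood endothelium, 166 CPM (159 to 173) in luminal and 161 CPM (141 to 183) in basal epithelium, which overlap, and 3.73 CPM in secretory epithelium, beside 3.88 CPM in T and NK cells. Milk protein genes took 760092 CPM of the secretory gate. In it, 8 of 339 barcodes (2.36%, 1.02 to 4.60) exceeded the T and NK limit for CX3CL1. Few T and NK barcodes can pass that limit by its definition, and 2 of 6576 did. The secretory gate had 22.3% of adult UMIs in 2.31% of barcodes, and the T and NK gate 25.4% in 44.8%. The part of depth in that CX3CL1 share was not tested. A UMI was found in 52.0% of blood endothelial, 48.9% of luminal and 62.4% of basal barcodes, and in 1.20% of T and NK barcodes. Luminal cells held 60.6% of the 3474 adult CX3CL1 UMIs at 5.01% of barcodes. In newborn blood endothelium it had 2 UMIs, or 16.5 CPM, among 18 barcodes. CSF3 too had a UMI in adult vessels and epithelium, in 43.0% of blood endothelial, 7.61% of luminal and 5.90% of secretory barcodes. The share with a CSF3 UMI was 0.791% in T and NK barcodes, at a median of 2837 UMIs against 11902.5 in luminal barcodes. Secretory barcodes held 3.48% of adult CSF3 UMIs and T and NK barcodes 2.42%, in gates with 22.3% and 25.4% of all adult UMIs. The secretory share of barcodes is thus not read apart from depth. CCL2 was detected in 34.8% (25.1 to 45.4) of 92 thinned luminal barcodes with CX3CL1 and in 13.8% (11.2 to 16.7) of 625 without it, but the intervals overlapped after thinning to 500 or 2000 UMIs. The genes most like CX3CL1 in 717 luminal barcodes were M-SAA3 (0.28), CXCL3 (0.25), TFPI2 (0.24), SAA3 (0.24) and CXCL2 (0.23), where M-SAA3 and SAA3 are acute-phase amyloid genes and CXCL3 and CXCL2 neutrophil chemokines.

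CXCL8 was highest in neutrophils at both stages. Adult neutrophils had 8756 UMIs or 28025 CPM (27441 to 28618), with a UMI in 97.9% of 190 barcodes at a median of 985 UMIs. Newborn neutrophils had 1089 UMIs or 20649 CPM (19441 to 21913), with a UMI in 96.7% of 30 barcodes at a median of 1417.5 UMIs. In the adult gate the lower quartile, median and upper quartile were 15, 34 and 65.5 UMIs. The 10% of adult neutrophils with most CXCL8 held 30.1% of it, so that it was spread over most cells of the gate.

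Adult macrophages had 3259 CPM of CXCL8 (3174 to 3345), and the newborn macrophage gate 1491 CPM in 17 barcodes. Adult blood endothelium had 1396 CPM (1318 to 1478), luminal epithelium 176 CPM and basal epithelium 223 CPM. The luminal and basal levels do not exceed that of adult T and NK cells. At least 10 CXCL8 UMIs were found in 24.0% of blood endothelial and 7.07% of luminal barcodes, against 1.61% of T and NK barcodes. Median depths of these gates were 5823, 11902.5 and 2837 UMIs. The T and NK limit of 32 UMIs was exceeded by 8 of 100 blood endothelial barcodes and 13 of 736 luminal barcodes (1.77%). In 229 adult macrophages CXCL8 was most like GRO1 (0.56), IL1B (0.45), CD83 (0.44), NFKBIA (0.43) and CCL2 (0.42). Of the 69082 adult CXCL8 UMIs, 48.0% lay in barcodes that passed no gate. The 274 of these whose highest marker score was neutrophil had a median of 840 UMIs and 48 CXCL8 UMIs, and they held 46.5% of the ungated CXCL8. The lymphatic gate had 362 CPM in the adult, where 41 of 2414 barcodes (1.70%, 1.22 to 2.30) exceeded the T and NK limit of 32 UMIs, and 942 CPM in the newborn, where 20 of 71 barcodes exceeded a limit of 1.

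The receptors were found in leukocytes and vessels, and both IL6 receptor chains in stroma as well. CXCR1, a receptor of CXCL8, had 1434 CPM in adult and 1801 CPM in newborn neutrophils, CXCR2 had 80.0 and 19.0 CPM (25 UMIs and 1 UMI), and CSF3R had 487 and 929 CPM there. CX3CR1 had 348 CPM in adult macrophages and 5.89 CPM, 1 UMI, in the 17 newborn barcodes. ACKR1, an atypical receptor that takes up CCL2 and CXCL8 on venules, had 1766 CPM in adult and 9219 CPM in the 18 newborn blood endothelial barcodes. IL6ST was detected in fibroblasts (110 and 95.9 CPM), blood endothelium (195 and 239) and lymphatic endothelium (165 and 166) of adult and newborn, and IL6R had 67.4 CPM in adult and 36.1 CPM in newborn fibroblasts and was highest in adult macrophages at 205 CPM. CCR2, the receptor of CCL2, did not exceed 1.16 CPM in any gate. In the fibroblast gate 4 of 8 receptors were measured, 0 were lower and 1 higher in the adult, which was CXCR1 with 4 adult UMIs (3.80 against 0.323 CPM).

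Genes around the members are given for fibroblasts by list, beside the 1.65% of all measured genes called lower and 9.57% called higher. Of 15 measured upstream cytokines and sensors, 0 were at least 4-fold lower and 3 higher in the adult, with a median log2 ratio of 1.23 against 0.76 over all genes. IL33, an alarmin, had 30.4 CPM in the adult and 0.759 CPM in the newborn, TLR4, the sensor of bacterial lipopolysaccharide, 59.8 and 11.1 CPM, and TNFRSF1B, a TNF receptor, 64.5 and 14.7 CPM. IL1A was not called, at 2.85 CPM (3 UMIs) in the adult and 7.88 CPM in the newborn.

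Of 14 NF-kB subunits and feedback targets, 2 were lower and 2 higher, with a median of -0.64. BIRC3, an inhibitor of apoptosis induced by NF-kB, had 63.6 CPM in the adult and 303 CPM in the newborn, and RELB 36.1 and 163 CPM, while IKBKE had 8.54 and 0.985 CPM and REL 22.8 and 5.04 CPM. Among 19 AP-1, CEBP and immediate early genes 2 were lower, FOSL1 (7.59 and 50.6 CPM) and CEBPD (1396 and 6520 CPM), and 1 was higher, NR4A2 (57.9 and 12.3 CPM), with a median of -0.39. CEBPD encodes a transcription factor known to act on IL6. Of 7 mRNA decay regulators 0 were lower and 0 higher, with ZFP36L2 at 580 and 308 CPM, ZFP36 at 999 and 1447 CPM and ZFP36L1 at 746 and 1036 CPM. Of 11 gp130 cytokines and STAT3 targets 0 were lower and 1 higher, which was the cytokine OSM with 6 adult UMIs (5.69 and 0.291 CPM). The kinases JAK2 (54.1 and 17.6 CPM) and PIM1 (29.4 and 72.0 CPM) were within 4-fold.

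Among 20 other mediators of inflamed stroma and vessels, 2 were lower and 3 higher in adult fibroblasts, with a median of 0.56. SAA3 had 110 CPM in the adult and 4337 CPM in the newborn, and TNFAIP6 had 649 and 6484 CPM. The higher ones were IL15 (4.75 and 0.372 CPM, 5 adult UMIs), the chemokine CCL8 (5.69 and 0.856 CPM, 6 adult UMIs) and ADAM10 (89.2 and 21.2 CPM). In lymphatic endothelium 6 of 16 of these mediators were lower and 0 higher, beside 1.77% and 2.3% of all genes measured there, with CXCL5, a neutrophil chemokine, at 160 and 2750 CPM and ICAM1, a leukocyte adhesion molecule, at 67.0 and 699 CPM. TNFAIP6 (2.28 and 131 CPM) and SAA3 (21.6 and 88.5 CPM), which newborn fibroblasts carried in large amounts, were also among the 6, with PTGS2 and CXCL12.

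Several measures moved with stage beside the members. Heat shock chaperones summed to 6731 CPM (13 of 14 genes) in adult and 17346 CPM (14 of 14) in newborn fibroblasts, and 1 of 14 was at least 4-fold lower, CRYAB (27.5 and 1149 CPM), followed by DNAJB1 (192 and 689 CPM) and HSPA1A (1392 and 4722 CPM). In lymphatic endothelium they summed to 8899 and 25619 CPM. Immediate early genes summed to 18895 CPM in adult and 29939 CPM in newborn fibroblasts. Milk protein genes, which secretory cells transcribe, summed to 21580 CPM (7 of 7 genes) in adult and 0.339 CPM (2 of 7) in newborn fibroblasts, and T and NK markers to 202 CPM (10 of 10) and 6.32 CPM (10 of 10). The median mitochondrial share was higher in the adult library, at 4.59% against 1.30% over all barcodes. The part of these measures in the differences between stages was not tested.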

How the data were processed

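The files hold raw UMI counts per gene and barcode as deposited by the authors, and the submitters' processing notes name Cell Ranger 3.1.0. Build and annotation: not given in the sources used here. Members and gene lists were chosen with earlier results of these data known. Barcodes with at least 300 genes and at most 20% of UMIs from 13 mitochondrial genes were kept. A barcode entered a gate when its UMIs of that lineage's markers reached a threshold of 3 to 20, at least 2 markers were detected and the score, set against the threshold, was at least 2 times that of any other lineage; barcodes that missed this margin were set apart as mixed. No doublet caller was run, and doublets may remain in the gates. CMA1, CXCL1, IL11 and MCEMP1 were not matched by symbol.

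UMIs were summed per gate and scaled to CPM. With 1 library per stage there is no test. A gene was called at 4-fold or more with an interval that leaves out 1, among genes with at least 20 UMIs in both libraries together, and gates were compared from 20 barcodes in each. The limit of T and NK barcodes, the split at 5000 UMIs and the class of at least 10 CCL2 UMIs were set after values were seen. For each list, the 3 measured genes furthest apart in fibroblasts and the gene furthest the other way are named, with all receptors; RELB, CCL8, ADAM10 and the mediators named in lymphatic endothelium were added after their values were seen, since they were called. Calculations were tested on simulated data. Python 3.11.15, numpy 2.4.6, scipy 1.17.1, pandas 2.3.3 and matplotlib 3.10.9 were used.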

Additional observations from a re-analysis of the deposited data

Results flagged for a closer look

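CXCL8 stood out because the sign of its ratio differed between gates: the log2 ratio of lactating adult over newborn was 0.82 in the fibroblast gate and -1.38 in the lymphatic endothelial gate. The difference between these ratios was not tested. The fibroblast level was 76.9 CPM in the adult and 43.5 CPM in the newborn, and the lymphatic level 362 CPM in the adult and 942 CPM in the newborn. The adult fibroblast level, with at most 3 UMIs in a barcode, is not read as expression, so no direction within fibroblasts is read from 0.82. T and NK cells had 351 CPM in the adult, at least 50% of it in 41 of 6576 barcodes, and 4.49 CPM in the newborn.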

How the results depend on the processing

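Over the alternatives run, 71 counts for the comparisons stayed within 1.5 times those reported and 3 counts moved. Of the other values, mostly single members, 198 stayed, 112 moved by more than their counting interval or, for counts, 1.5 times, and 2 reversed. Subtracting a floor (T and NK cells of the adult, mast cells of the newborn) gave 1 member higher in the adult endothelial gate, against 0. Using only barcodes under 5000 UMIs, a choice made after seeing the data, gave 4 members lower and 1 higher in adult fibroblasts, against 2 and 0. The higher one was CXCL8, which is not read as expression in adult fibroblasts. CX3CL1 in the endothelial gate, at 0.91, reversed to -0.036 with the mean of CPM per barcode and to -1.72 with barcodes under 5000 UMIs only; the cause was not tested. Log2 ratios in fibroblasts ran from -8.20 to -4.62 for PTX3, from -4.68 to -0.90 for CCL2, from -3.89 to -0.15 for IL6 and from -5.57 to -4.42 for CX3CL1. CXCL8 ran from 0.14 to 2.09, the lowest with median of ratios scaling, and CSF3 from -1.17 to 0.05, so that CSF3 has no direction there. In the adult, PTX3 was highest in neutrophils under 4 settings (the 10% of barcodes with most UMIs left out, the mean of CPM per barcode, barcodes under 5000 UMIs, shared barcodes left out), and CCL2 in macrophages without the 10% of barcodes with most UMIs and with barcodes under 5000 UMIs. Newborn IL6 and CSF3 were highest in blood endothelium at lower gate thresholds, and newborn IL6 in fibroblasts with a margin of 4 or barcodes under 5000 UMIs. No paired analysis was possible because each stage has 1 library and the labels give no replicate numbers. Depth limits CX3CL1 (3 UMIs) and CSF3 (15 UMIs) in adult fibroblasts and all genes in the newborn gates of 17 and 18 barcodes.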

Other observations

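Barcodes with marker scores of several lineages had 745 CPM of IL6 in the adult (462 barcodes) and 3136 CPM in the newborn (69 barcodes). Endothelial barcodes of the adult that could be called neither blood nor lymphatic (85) had 2201 CPM of IL6 (2090 to 2316), between the 12745 CPM of blood and the 99.0 CPM of lymphatic endothelium. Among newborn fibroblasts, CXCL8 was highest in the contractile subset, at 149 CPM (133 to 166) against 43.5 CPM over the gate, while PTX3 and CCL2 were lower there than over the gate.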
